A study of Felis catus with 15 samples.

Results

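Cytosolic ribosomal protein genes encode the proteins of the ribosome that translates nuclear messages. They were taken as protein-coding genes with symbols RPL or RPS followed by a number and an optional A, L or X ending, together with RPLP0, RPLP1, RPLP2, RPSA and FAU. Kinases of the RPS6K group, pseudogenes and mitochondrial ribosomal proteins were left out. This gave 78 of the 38995 genes in the count table, 46 for the large and 32 for the small subunit. Of these, 77 were among the 18038 genes that passed a filter on low counts, and RPL10L did not. RPS28 and RPL38 are listed as non-coding in the gene table used for names and fell outside.

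The libraries were made from epididymis of domestic cats (Felis catus), from the corpus, which lies between caput and cauda. There were 3 groups of 5 libraries each. In the first, pieces of corpus kept as explants in culture received extracellular vesicles, small membrane-bound particles shed by cells, which per the series text came from the caput, the first epididymal region. The second was explants in culture without added vesicles, and the third was fresh tissue. The labels give no strain, age or genotype, no vesicle dose and no culture time in words. Each library does carry a code, which reads D3 on all explants, with or without vesicles, and D0 on the fresh ones. The labels do not spell out what this code stands for. Libraries are named by group and replicate number (culture 3). The numbers recur in every group, but whether different numbers are different animals is not given, so each p-value refers to the spread among these libraries, which may be technical.

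A ribosome has a small subunit, which reads the message, and a large subunit, which joins amino acids and passes the new chain through its exit tunnel. Each holds ribosomal RNA and, with the stalk proteins as an exception, a single copy of every ribosomal protein, so cells make these proteins in matched amounts. Their messages start with a pyrimidine tract (TOP) through which mTOR signalling and the protein LARP1 control how well they are translated and how long they last. In the epididymis, principal cells of the duct secrete most of the protein that sperm meet. In these bulk samples, fewer cells of a type and less RNA per cell cannot be told apart.

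Total counts were 17308832 to 27420218 with vesicles, 19308190 to 25454399 in culture and 17751507 to 24841100 in fresh tissue. One library stood apart. In culture 3, the 13 protein genes of the mitochondrial genome made up 0.179% of counts, against 6.23 to 7.48% in the other cultures. This mitochondrial share also differed between groups, at 6.40 to 7.26% with vesicles and 8.69 to 11.4% in fresh tissue, and its part in the results was not tested. The ribosomal protein genes of culture 3 were scattered as well. Their differences from the mean of the other cultures had an SD of 0.855 on the log2 scale, against 0.238 to 0.259 when each other culture was set against the rest of its group. For the members described below, the value without culture 3 is given where leaving it out ended a call or moved a called value by over 1.5 times. Ribosomal protein genes have many near-identical pseudogene copies, and how reads matching several places were counted is not given, so the level of any single member is uncertain.

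Ribosomal protein genes as a whole took, on average, a larger share of counts in both kinds of explant than in fresh tissue. The share was 4.40, 4.50, 4.49, 3.52 and 4.06% with vesicles, 4.57, 5.46, 5.05, 3.91 and 3.96% in culture, and 3.21, 3.58, 3.17, 3.19 and 2.94% in fresh tissue. The means were 4.19% ± 0.418 with vesicles, 4.59% ± 0.674 in culture and 3.22% ± 0.232 in fresh tissue (SD, n = 5 each). Every culture without vesicles lay above every fresh library, whereas library 4 with vesicles lay below fresh 2. The counts of small subunit genes per count of large subunit genes were 0.682 to 0.700 with vesicles, 0.683 to 0.841 in culture and 0.633 to 0.646 in fresh tissue. These ranges did not overlap with fresh tissue, and the highest value, 0.841, was that of culture 3, the other cultures reaching 0.716.

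**Figure D1:**
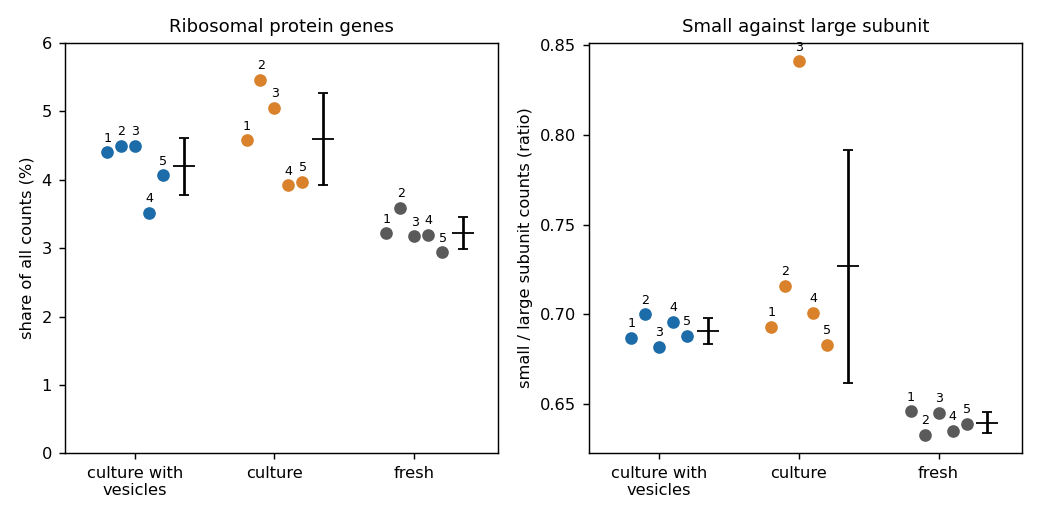
Share of all counts taken by ribosomal protein genes (left, percent) and counts of small per large subunit genes (right, ratio, axis not from 0). Points are libraries with their replicate number and bars are means ± SD of 5 libraries. The cultures sit at 3.91% and above, the fresh libraries at 3.58% and below.

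Set against fresh tissue, a gene was called when its adjusted p (edgeR quasi-likelihood, Benjamini-Hochberg over all 18038 genes) was under 0.05. With vesicles, 38 of the 77 members (49.4%) were higher than in fresh tissue, where 27.4% of all tested genes were. In culture alone, 49 (63.6%) were higher, where 28.7% of all genes were. The only member called lower was RPL3L, in both comparisons, beside 25.5% and 25.6% of all genes. Log2 fold changes were positive for 71 members with vesicles and for 74 in culture, and negative for 6 and 3. The median log2 fold change of the members was 0.44 with vesicles and 0.58 in culture, a 1.36-fold and a 1.497-fold level, beside medians over all genes of 0.01 and 0.04. Members called higher ranged from 0.38 (RPS13) to 1.09 with vesicles and from 0.34 (RPL14) to 1.48 in culture, and those not called from -0.22 (RPL10) to 0.52 (RPS27) with vesicles and from -0.24 (RPL10) to 0.415 (RPL37A) in culture. Over 2-fold rises were called for 3 members with vesicles (18% of all genes) and for 9 in culture (19%). Of these 9, RPS3, RPS15 and RPS27 were under 2-fold without culture 3 and RPS20 stayed over it, as given below. The count of such rises without culture 3 is not given here. All 5 vesicle libraries lay above all 5 fresh ones for 42 members (25.3% of all genes did), and all 5 cultures for 37 (20.2%). Without culture 3, which also enters the shared estimate of spread, the calls were 53 higher with vesicles and 56 in culture. Leaving it out raised calls among 77 mitochondrial ribosomal protein genes, from 21 to 28 higher with vesicles and from 19 to 26 in culture. The share of all genes called in this setting is not given here. Both comparisons use the same fresh libraries.

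**Figure D2:**
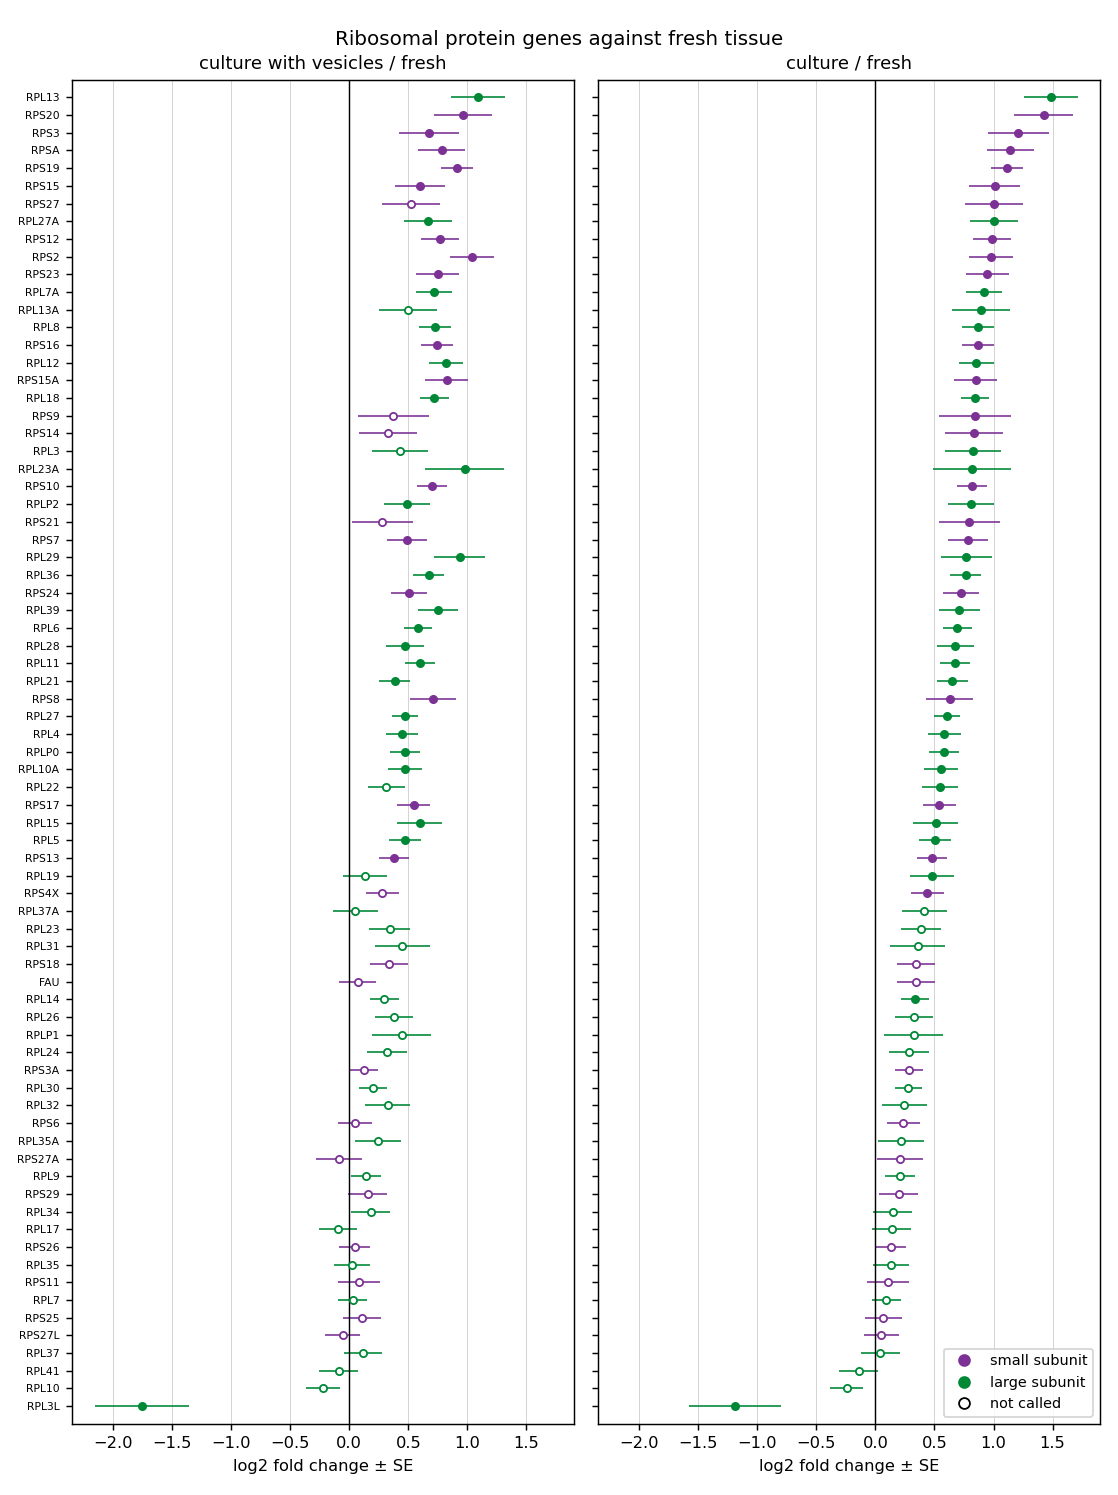
Log2 fold change ± SE of 75 of the 77 tested ribosomal protein genes against fresh tissue, with vesicles on the left and culture alone on the right, ordered by the culture values. Filled points passed the adjusted p of 0.05. Most points lie right of 0, from RPL13 at 1.09 and 1.48 down to RPL3L at -1.75 and -1.19.

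The largest rise was that of RPL13. This large subunit protein, mutated in a human skeletal dysplasia, had 541, 624, 575, 429.9 and 429 CPM (counts scaled to the library size) with vesicles, 573, 699, 1158, 442 and 536 in culture and 259.7, 299, 221, 238 and 201 in fresh tissue. All 10 explant libraries exceeded all fresh ones, and culture 3 was far above the other cultures. The log2 fold change was 1.09 ± 0.23 (SE, edgeR adjusted p = 8.61e-04) with vesicles and 1.48 ± 0.23 (SE, edgeR adjusted p = 6.62e-05) in culture.

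The head of the small subunit grips the message and swings during each step. Of its 13 members, 8 were higher with vesicles and 9 in culture, where 27.4% and 28.7% of all genes were. RPS19 is the gene most often mutated in Diamond-Blackfan anaemia, a failure of red cell production. It had 564, 663, 582, 488 and 553 CPM with vesicles, 596, 803, 739, 549 and 599 in culture and 314, 344, 283, 307 and 267 in fresh tissue. The explants lay clear of fresh tissue, and here culture 3 was not the highest culture. Log2 fold changes against fresh tissue were 0.91 ± 0.13 (SE, edgeR adjusted p = 4.30e-05) with vesicles and 1.12 ± 0.14 (SE, edgeR adjusted p = 6.48e-06) in culture, the smallest adjusted p of any member in either comparison. RPS20, another head protein, had 581, 644, 566, 479.6 and 489 CPM with vesicles, 559, 768, 1454, 509 and 519.7 in culture and 269, 299, 281, 289.9 and 281 in fresh tissue. Explants and fresh tissue did not overlap, and culture 3 was far above the other cultures. The change against fresh tissue, on the log2 scale, was 0.96 ± 0.24 (SE, edgeR adjusted p = 0.00399) with vesicles and 1.42 ± 0.25 (SE, edgeR adjusted p = 1.93e-04) in culture, and 1.06 ± 0.12 (SE, edgeR adjusted p = 7.18e-06) in culture without culture 3.

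RPS3 sits at the point where the message enters and also takes part in DNA repair. Its CPM were 634, 639, 640.0, 521 and 611 with vesicles, 637, 793, 1775, 589.7 and 616 in culture and 342, 439.8, 355, 395 and 375 in fresh tissue. All explants were above fresh tissue, and culture 3 was the high one by a wide margin. This gave log2 fold changes of 0.68 ± 0.26 (SE, edgeR adjusted p = 0.037) with vesicles and 1.21 ± 0.26 (SE, edgeR adjusted p = 0.00105) in culture, and 0.80 ± 0.11 (SE, edgeR adjusted p = 2.50e-05) in culture without culture 3. The call with vesicles was lost, at adjusted p of 0.0566 to 0.0785, when any of fresh 1, 3, 4 and 5 or of the vesicle libraries 1, 2, 3 and 5 was left out. RPS15, a head protein at the decoding site, had 296, 281, 284, 262 and 244 CPM with vesicles, 285, 326, 658, 271 and 282 in culture and 184, 197, 155, 199.9 and 169 in fresh tissue. It too was highest in culture 3. The log2 fold change was 0.59 ± 0.21 (SE, edgeR adjusted p = 0.0278) with vesicles and 1.01 ± 0.21 (SE, edgeR adjusted p = 9.67e-04) in culture, and 0.69 ± 0.09 (SE, edgeR adjusted p = 2.40e-05) in culture without culture 3. Its call with vesicles was lost, at adjusted p of 0.0508 to 0.0697, without fresh 3 or 5 or without vesicle library 1, 2, 3 or 4.

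In the body and platform of the small subunit, 8 of 18 members were higher with vesicles and 13 in culture. Of all genes, 27.4% and 28.7% were. Without culture 3 these counts were 11 and 13. RPSA, which also serves as a laminin receptor at the cell surface, had 1257, 1497, 1321, 1081 and 1151 CPM with vesicles, 1293, 1816, 2561, 1194 and 1228 in culture and 651, 765, 773, 720.3 and 762 in fresh tissue. There was no overlap with fresh tissue. Log2 fold changes against fresh tissue were 0.78 ± 0.20 (SE, edgeR adjusted p = 0.00366) with vesicles and 1.14 ± 0.20 (SE, edgeR adjusted p = 1.93e-04) in culture. RPS2, at the entry of the message, had 1094, 1226, 1063, 1075 and 1037 CPM with vesicles, 1113, 1466, 589, 1120.0 and 982 in culture and 500.1, 621, 509.7, 554 and 492 in fresh tissue. Culture 3 was here the low culture and the only explant inside the fresh range. The change against fresh tissue, on the log2 scale, was 1.04 ± 0.19 (SE, edgeR adjusted p = 2.52e-04) with vesicles and 0.98 ± 0.19 (SE, edgeR adjusted p = 4.05e-04) in culture.

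RPS6, the ribosomal protein phosphorylated downstream of mTOR, was not called. It had 852, 865, 886, 713 and 759.7 CPM with vesicles, 856, 1024, 1209, 795 and 768 in culture and 706, 889, 809.8, 824 and 717 in fresh tissue, with overlapping groups. This gave log2 fold changes of 0.05 ± 0.14 (SE, edgeR adjusted p = 0.806) with vesicles and 0.24 ± 0.14 (SE, edgeR adjusted p = 0.172) in culture. RPS26, which touches the message upstream of the start codon, had log2 fold changes of 0.05 ± 0.13 (SE, edgeR adjusted p = 0.781) with vesicles and 0.13 ± 0.13 (SE, edgeR adjusted p = 0.417) in culture. The X-linked RPS4X, a protein of the body, had 0.28 ± 0.14 (SE, edgeR adjusted p = 0.1) with vesicles and 0.44 ± 0.14 (SE, edgeR adjusted p = 0.0137) in culture. Without culture 3 the RPS4X difference with vesicles was called (0.29, edgeR adjusted p = 0.0418). RPS14, mutated or deleted in a form of myelodysplastic anaemia, RPS21 and RPS27 rose in culture, by 0.83, 0.80 and 1.01 on the log2 scale (edgeR adjusted p = 0.00919, 0.0171 and 0.00281). Without culture 3 these rises in culture were smaller, at 0.465, 0.396 and 0.62 (edgeR adjusted p = 0.00385, 0.0186 and 2.51e-04). With vesicles their log2 fold changes were 0.33, 0.28 and 0.52 (edgeR adjusted p = 0.27, 0.388 and 0.0849). RPS14 and RPS27 passed with vesicles once culture 3 was left out (edgeR adjusted p = 0.0175 and 5.64e-04).

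The stalk of the large subunit, made of RPLP0, RPLP1, RPLP2 and the neighbouring RPL12, recruits the translation factors. With vesicles and in culture, 3 of these 4 were higher, where 27.4% and 28.7% of all genes were. Once culture 3 was left out, all 4 were higher in both comparisons. RPLP0, often used as a reference gene in quantitative PCR, had 1207, 1270.0, 1180.0, 1018 and 1087 CPM with vesicles, 1209, 1489, 1358, 1088 and 1075 in culture and 745, 948, 797, 828 and 838 in fresh tissue. Every explant was above every fresh library. The log2 fold change was 0.47 ± 0.13 (SE, edgeR adjusted p = 0.00601) with vesicles and 0.58 ± 0.13 (SE, edgeR adjusted p = 0.00134) in culture. RPLP2 had log2 fold changes of 0.49 ± 0.20 (SE, edgeR adjusted p = 0.0459) with vesicles and 0.81 ± 0.20 (SE, edgeR adjusted p = 0.00264) in culture. Its call with vesicles was weak, since it was lost, at adjusted p of 0.0505 to 0.111, in 13 of the 15 fits that leave out 1 library, the exceptions being those without culture 2 or culture 3.

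RPLP1 was the stalk member not called. It had 723, 749, 660.0, 561 and 451 CPM with vesicles, 691, 851, 258, 557 and 535 in culture and 493, 578, 423, 440.0 and 379 in fresh tissue. Culture 3 was the lowest of all 15 libraries, while culture 1 and 2 and vesicle libraries 1 to 3 lay above the fresh range. Log2 fold changes against fresh tissue were 0.44 ± 0.25 (SE, edgeR adjusted p = 0.147) with vesicles and 0.32 ± 0.25 (SE, edgeR adjusted p = 0.286) in culture. Without culture 3 it was 0.45 with vesicles and 0.52 in culture (edgeR adjusted p = 0.0305 and 0.0212).

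RPL5 and RPL11 join the ribosome together with the 5S RNA and, when free, bind the p53 regulator MDM2. Both rose. RPL5 had 891, 996, 966, 820.1 and 920.4 CPM with vesicles, 926, 1222, 779, 865 and 923 in culture and 584, 754, 682, 685 and 614 in fresh tissue, with no overlap between explants and fresh tissue. Its log2 fold change was 0.47 ± 0.13 (SE, edgeR adjusted p = 0.00821) with vesicles and 0.51 ± 0.13 (SE, edgeR adjusted p = 0.00485) in culture. RPL11 had log2 fold changes of 0.60 ± 0.13 (SE, edgeR adjusted p = 8.95e-04) with vesicles and 0.67 ± 0.13 (SE, edgeR adjusted p = 3.51e-04) in culture. Its CPM were 369, 412, 385, 335 and 392 with vesicles, 387, 520.2, 348, 355 and 381 in culture and 232, 282, 232, 260.4 and 242 in fresh tissue, again without overlap and highest in culture 2.

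Members placed near the catalytic centre or the transfer RNAs were RPL3, RPL8, RPL10 and RPL10A. Of these 4, 2 were higher with vesicles and 3 in culture, where 27.4% and 28.7% of all genes were. RPL10, an X-linked protein that joins late and reaches the catalytic centre, was the one not called in either. It had 1478, 1390.0, 1559, 1169 and 1390.0 CPM with vesicles, 1481, 1704, 1045, 1250.0 and 1406 in culture and 1459, 1773, 1620.0, 1685 and 1613 in fresh tissue. Culture 3 was the lowest, and apart from it the groups lay close together. The change against fresh tissue, on the log2 scale, was -0.22 ± 0.14 (SE, edgeR adjusted p = 0.203) with vesicles and -0.24 ± 0.14 (SE, edgeR adjusted p = 0.16) in culture. DESeq2 called it lower in both (log2 fold change -0.28 with vesicles and -0.28 in culture, adjusted p = 0.0477 and 0.0425).

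Of 8 members that line or surround the exit tunnel, 3 were higher with vesicles and 4 in culture, where 27.4% and 28.7% of all genes were. Leaving out 1 library gave 2 to 5 in each comparison, 5 in both without culture 3. RPL39, a short protein inside the tunnel, had 189, 202, 201, 159.5 and 176 CPM with vesicles, 193, 249.6, 104, 178 and 177 in culture and 109, 122, 105, 107 and 107 in fresh tissue. Culture 3 was below every fresh library and all other explants were above them. This gave log2 fold changes of 0.75 ± 0.17 (SE, edgeR adjusted p = 0.00182) with vesicles and 0.71 ± 0.17 (SE, edgeR adjusted p = 0.00265) in culture.

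RPL23A, at the tunnel mouth where the signal recognition particle docks, had 619, 715, 630.3, 522 and 608 CPM with vesicles, 611, 862, 122, 581 and 599 in culture and 336, 376, 279.7, 323 and 259 in fresh tissue. No member was further from its group in culture 3, where it lay 2.42 log2 units below the mean of the other cultures. The log2 fold change was 0.98 ± 0.33 (SE, edgeR adjusted p = 0.0217) with vesicles and 0.82 ± 0.33 (SE, edgeR adjusted p = 0.0474) in culture. The culture call was lost in each of the 14 fits that leave out a library other than culture 3 (adjusted p of 0.0535 to 0.132). Without culture 3 it was 1.08 ± 0.14 (SE, edgeR adjusted p = 1.82e-05). With vesicles the call was lost without fresh 5 (0.92, edgeR adjusted p = 0.0504).

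Among the 26 other large subunit members, 12 were higher with vesicles and 15 in culture, where 27.4% and 28.7% of all genes were. Without culture 3 the members higher were 18 and 19. RPL29, a large subunit protein, had 498, 531, 533, 410.0 and 474 CPM with vesicles, 483, 577, 192, 458 and 473 in culture and 258, 288, 239.5, 267 and 227 in fresh tissue. Culture 3 again fell below the fresh range. Log2 fold changes against fresh tissue were 0.94 ± 0.21 (SE, edgeR adjusted p = 0.0019) with vesicles and 0.77 ± 0.21 (SE, edgeR adjusted p = 0.00678) in culture. RPL13A is known in human cells to leave the ribosome and silence inflammatory messages as part of the GAIT complex. It had log2 fold changes of 0.50 ± 0.24 (SE, edgeR adjusted p = 0.0972) with vesicles and 0.90 ± 0.24 (SE, edgeR adjusted p = 0.00581) in culture, and without culture 3 it had 0.51 with vesicles and 0.585 in culture (edgeR adjusted p = 0.0104 and 0.00622). RPL22, which also binds structured RNAs, had 0.31 ± 0.15 (SE, edgeR adjusted p = 0.0993) with vesicles and 0.55 ± 0.15 (SE, edgeR adjusted p = 0.00745) in culture, and 0.32 with vesicles (edgeR adjusted p = 0.0114) without culture 3. RPL41, a protein of very few residues, had 563, 665, 623, 519 and 536 CPM with vesicles, 563, 786, 358, 539 and 554 in culture and 622, 672, 586, 617 and 592 in fresh tissue. Apart from culture 2, which was above, explant values lay within the fresh range or below it. The change against fresh tissue, on the log2 scale, was -0.09 ± 0.17 (SE, edgeR adjusted p = 0.678) with vesicles and -0.14 ± 0.17 (SE, edgeR adjusted p = 0.486) in culture.

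RPS27A and FAU, whose proteins are made as fusions to ubiquitin or to a ubiquitin-like protein, were not called. RPS27A, which encodes ubiquitin joined to a small subunit protein, had 612, 663, 619.8, 519.9 and 516 CPM with vesicles, 612, 784, 1148, 551 and 511 in culture and 673, 707, 600.4, 598 and 542 in fresh tissue. Except in culture 3, explant values lay within or below the fresh range or, in culture 2, above it. This gave log2 fold changes of -0.09 ± 0.19 (SE, edgeR adjusted p = 0.722) with vesicles and 0.21 ± 0.19 (SE, edgeR adjusted p = 0.381) in culture. FAU, which joins a ubiquitin-like protein to a small subunit protein, had 0.07 ± 0.16 (SE, edgeR adjusted p = 0.723) with vesicles and 0.34 ± 0.16 (SE, edgeR adjusted p = 0.0752) in culture. In culture it was called without culture 5 (0.43, edgeR adjusted p = 0.0391), whereas without culture 3 it was 0.175 (edgeR adjusted p = 0.146).

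Paralogs of ribosomal protein genes are given beside the genes they resemble. RPL3L, which in mammals replaces RPL3 in heart and skeletal muscle ribosomes, had 2.14, 2.04, 2.63, 1.97 and 3.04 CPM with vesicles, 1.34, 3.20, 8.10, 1.96 and 2.95 in culture and 6.50, 6.26, 11.8, 6.98 and 8.40 in fresh tissue. Vesicle libraries were all below fresh tissue, as were the cultures other than culture 3. The log2 fold change was -1.75 ± 0.40 (SE, edgeR adjusted p = 0.00168) with vesicles and -1.19 ± 0.39 (SE, edgeR adjusted p = 0.0179) in culture. In culture it was -1.75 ± 0.29 (SE, edgeR adjusted p = 1.41e-04) without culture 3, and -1.01 (edgeR adjusted p = 0.0521) without fresh 3. RPL3 itself had 0.43 ± 0.24 (SE, edgeR adjusted p = 0.138) with vesicles and 0.83 ± 0.24 (SE, edgeR adjusted p = 0.0083) in culture. Without culture 3 it was called in both, at 0.44 with vesicles and 0.48 in culture (edgeR adjusted p = 0.00336 and 0.00298). The difference between paralogs was not tested.

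RPL10L, a copy of RPL10 expressed in the testis of mouse and man, failed the filter. It had 0, 0, 0, 0 and 2 counts with vesicles, 0 in every culture, and 2, 6, 8, 4 and 5 counts in fresh tissue. Over the groups it was 13.9-fold lower with vesicles (95% exact binomial interval 3.46 to 121) and at least 8.59-fold lower in culture, taken against 3 counts over the group. These limits cover counting error only. RPS27L, a p53 target and copy of RPS27, had 25.9, 35.3, 26.1, 32.4 and 28.4 CPM with vesicles, 31.9, 42.4, 25.4, 30.8 and 29.0 in culture and 29.6, 30.7, 27.3, 37.0 and 29.6 in fresh tissue. The groups overlapped, with log2 fold changes of -0.06 ± 0.15 (SE, edgeR adjusted p = 0.771) with vesicles and 0.05 ± 0.15 (SE, edgeR adjusted p = 0.798) in culture. Outside the rule, RPL22L1, the paralog of RPL22, was higher by 1.36 ± 0.29 with vesicles and 1.45 ± 0.29 in culture (log2, SE, edgeR adjusted p = 9.74e-04 and 6.00e-04). RPL7L1, the paralog of RPL7, was higher by 0.61 ± 0.10 with vesicles and 0.62 ± 0.10 in culture (edgeR adjusted p = 9.69e-05 and 7.37e-05). RPL26L1 and RPL36AL were not called. RPS28, a small subunit gene left out by the rule, was higher in culture (1.45 ± 0.43, edgeR adjusted p = 0.0102) and not called with vesicles (0.52 ± 0.42, edgeR adjusted p = 0.319). It had 906 CPM in culture 3, against 149 to 243 in the other cultures and 95.9 to 158 in fresh tissue. The size of its rise in culture thus leans on culture 3, and the value without that library is not given here. RPL38, likewise left out, had 0.36 ± 0.16 with vesicles and 0.37 ± 0.16 in culture (edgeR adjusted p = 0.067 and 0.0631).

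The added vesicles were compared with culture alone. No member passed the adjusted p of 0.05 in edgeR, and neither did any of the 18038 genes (0%). DESeq2, limma-voom and the fit with the replicate number as a block called none either. At an unadjusted p under 0.05 there were 0 members in edgeR, 3 in DESeq2, 0 in limma-voom and 0 in the blocked fit, beside 183 (1.01%), 269, 237 and 206 of all genes. The smallest unadjusted p of a member was 0.0509, for RPL21, a large subunit protein. RPL21 had 503, 537, 505, 473 and 504 CPM with vesicles and 539.9, 699, 757, 500.3 and 545 in culture, a log2 fold change of -0.27 ± 0.13 (SE), and was lower with vesicles in 5 of 5 same-numbered pairs. Against fresh tissue, at 379, 428, 350.3, 402 and 376 CPM, its log2 fold change was 0.38 ± 0.13 (SE, edgeR adjusted p = 0.0197) with vesicles and 0.65 ± 0.13 (SE, edgeR adjusted p = 5.23e-04) in culture, the first being lost without vesicle library 2 or fresh 3 (edgeR adjusted p = 0.0572 and 0.0505). The next 5 were RPS3, RPS14, RPS21, RPS27 and RPS15, at log2 fold changes of -0.53, -0.50, -0.52, -0.49 and -0.41, and each was highest in culture 3. Without culture 3 their values were -0.114, -0.127, -0.11, -0.095 and -0.091.

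Small differences nevertheless leaned one way. Log2 fold changes of vesicles against culture were negative for 59 of 77 members (76.6%), where 49.8% of all genes were negative, with a median of -0.115 beside 0.00 over all genes. Of the members, 15 were lower in 5 of 5 same-numbered pairs, as were 3.12% of all genes. Without culture 3 the values were tightly bunched, with 76 of 77 negative, a median of -0.095 and an SD over members of 0.036. Of 77 mitochondrial ribosomal protein genes, 45 were negative in this setting, with a median of -0.02 and an SD of 0.07. The share of all genes without culture 3 is not given here. The lean differed between pairs. In pair 2 all 77 members were lower with vesicles, with a median difference of -0.280, and in pair 4 there were 71, with a median of -0.124. In pairs 1 and 5, 48 and 45 members were lower, with medians of -0.013 and -0.015. In pair 3, 44 were lower, the median was -0.118 and the SD over members was 0.843, against 0.069 to 0.101 in the other pairs. With 1 library left out the median ranged from -0.17 to -0.04, the weakest without culture 2, and limma-voom with quality weights gave -0.033.

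**Figure D3:**
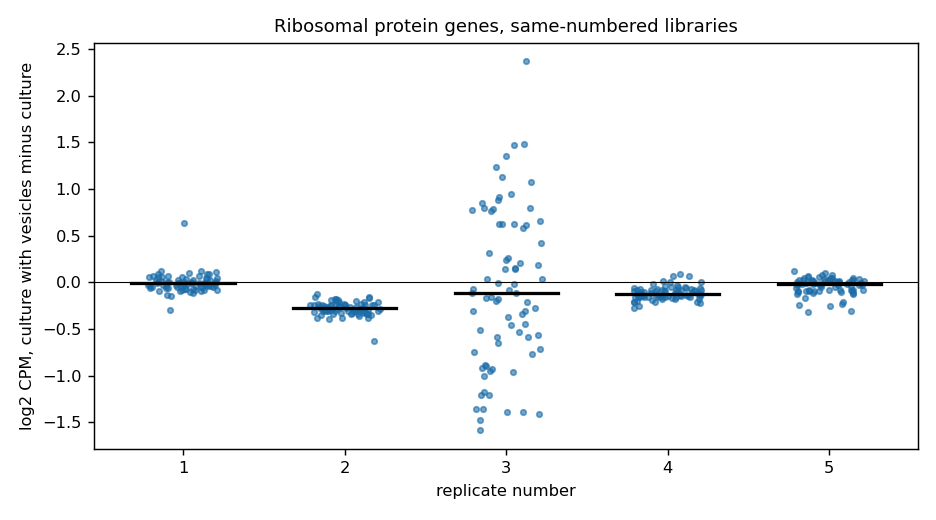
Difference in log2 CPM between the vesicle library and the culture of the same replicate number, 1 point for each of 77 ribosomal protein genes, with the median as a line. Pair 2 is shifted down to a median of -0.280, pairs 1 and 5 sit near 0, and pair 3 is spread over more than 3 log2 units.

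Within a group, the members shifted together from library to library. Fresh 2 was the highest fresh library for 65 of 77 members and fresh 5 the lowest for 42. Vesicle library 4 was the lowest of its group for 62, and library 2 the highest for 49. Culture 2 was the highest culture for 45, and culture 3 was the highest for 29 and the lowest for 30. Taking each library's deviation from its group mean over the 14 libraries without culture 3, the mean correlation between pairs of members was 0.744, against 0.182 for 77 mitochondrial ribosomal protein genes and 0.00 for all genes. With all 15 libraries it was 0.372, 0.068 and 0.00. Scaling levels the libraries over all genes, which by itself holds the mean for all genes low, so that value is no yardstick for the members. Members share their libraries, depth and scaling, so these values are a description.

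The order of the members by their difference from fresh tissue recurred from number to number. Differences from the fresh library of the same number, over the 77 members, correlated between replicate numbers at 0.914 to 0.950 with vesicles, and at 0.902 to 0.956 in culture with pair 3 left out. Leaving out RPL3L, these ranges were 0.875 to 0.925 and 0.894 to 0.939. No library is used at more than 1 number, and what the points share is the set of genes. These correlations were not taken over other genes, so whether such recurrence is particular to the members was not tested. Pairs that include culture 3 brought the lowest value in culture to 0.360. For vesicles against culture, the same correlations were -0.339 to 0.242, and -0.339 to 0.148 with pair 3 left out. In the pairs other than pair 3 these differences were tightly bunched, with an SD over members of 0.069 to 0.101.

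**Figure D4:**
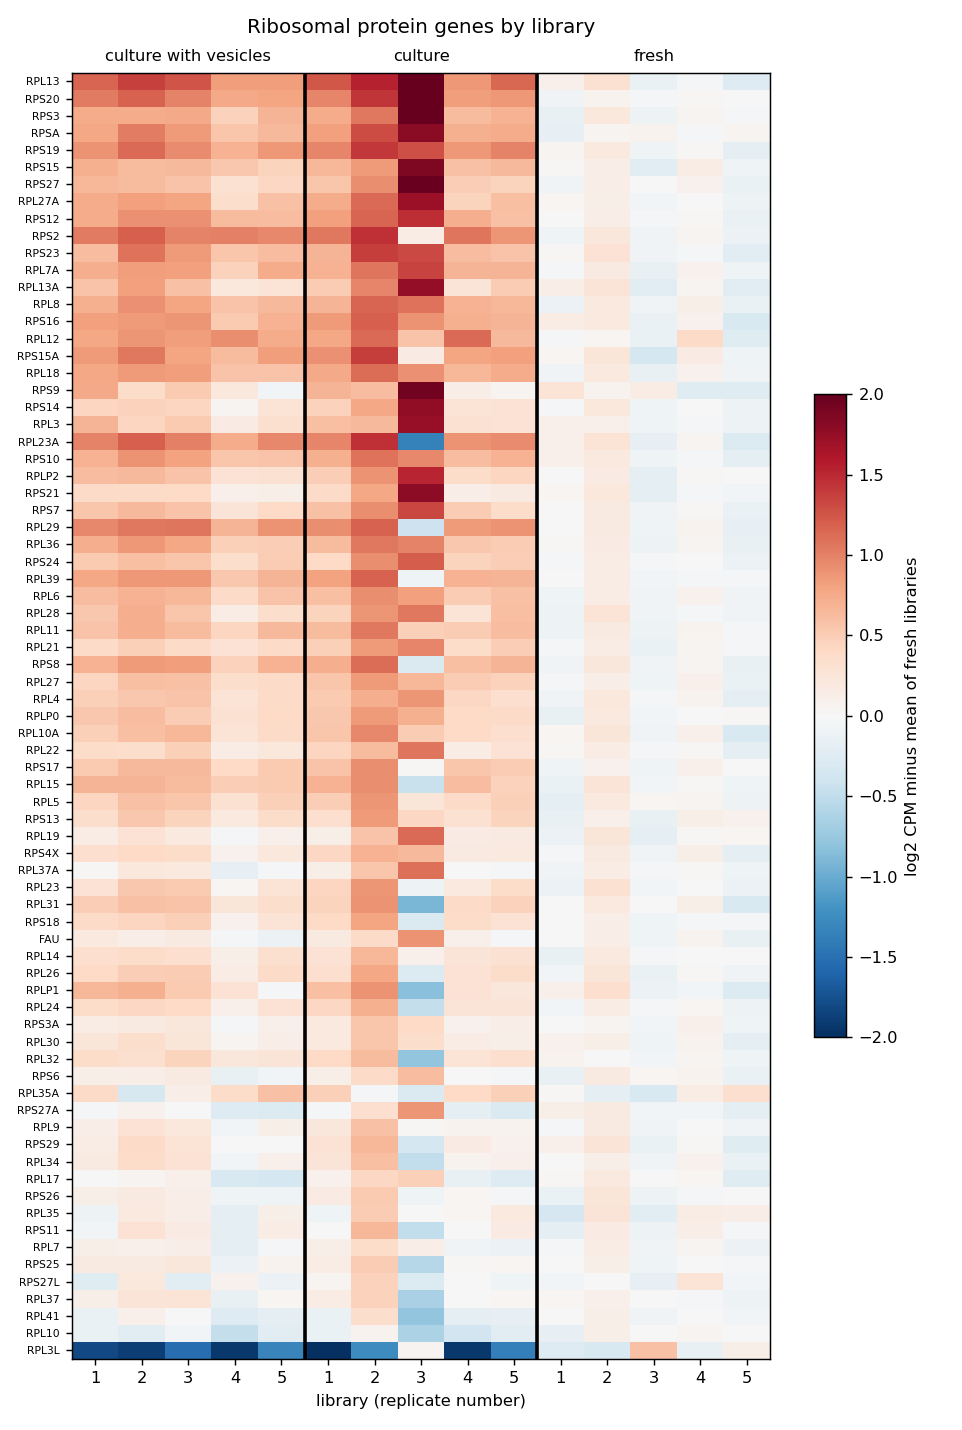
Log2 CPM of 75 ribosomal protein genes, each minus its mean in the 5 fresh libraries, in rows ordered by the culture against fresh fold change, for all 15 libraries. Colours are cut at -2 and 2. Rows keep their shade across the vesicle and culture libraries other than culture 3, whose column departs from its neighbours in both directions.

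The members out of place in culture 3 were not of 1 subunit. Compared with the mean of the other cultures, 11 members were more than 1 log2 unit higher and 7 more than 1 lower. The high ones included RPL3L (1.82), RPS9 (1.56), RPS3 (1.44) and RPS21 (1.42). The low ones included RPL23A (-2.42), RPL31 (-1.46), RPL29 (-1.37) and RPLP1 (-1.33). Of the large subunit members 23 of 45 were above the other cultures and of the small subunit members 20 of 32, with medians of 0.07 and 0.25. The median rise over fresh tissue in culture was 0.55 for the large and 0.76 for the small subunit with culture 3, and 0.56 and 0.55 without it. With vesicles these medians were 0.443 for the large and 0.435 for the small subunit. RPS9, a small subunit protein whose bacterial counterpart affects the accuracy of decoding, was called higher in culture (0.84 ± 0.30 (SE, edgeR adjusted p = 0.0277)) and not without culture 3 (0.39 ± 0.18 (SE, edgeR adjusted p = 0.0791)), nor without fresh 4 or 5 (0.79, edgeR adjusted p = 0.0605 and 0.0621). It was chosen for naming after its values were seen.

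Same-numbered vesicle and fresh libraries deviated together, so the numbers were taken to pair them. In the blocked fit of vesicles against fresh tissue, members further called higher included RPL14 and RPL26, by 0.30 and 0.39 on the log2 scale (edgeR adjusted p = 0.0342 and 0.0362). Without the block their adjusted p were 0.0506 and 0.0565.

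Other translation genes were examined beside the members. Of 18 further genes with TOP messages, 10 were higher with vesicles and 12 in culture, and none was lower. Over all genes, 27.4% and 28.7% were higher and 25.5% and 25.6% lower. The median log2 fold changes of the TOP genes were 0.56 and 0.80. Of these 18 genes, 1 was lower with vesicles without culture 3, and 1 in culture without culture 2. NPM1, a nucleolar protein that helps assemble ribosomes, averaged 609 CPM with vesicles, 632 in culture and 218 in fresh tissue, a log2 fold change of 1.48 ± 0.11 with vesicles and 1.53 ± 0.11 in culture (edgeR adjusted p = 3.95e-08 and 2.90e-08). BTF3, part of a complex that meets the new chain at the tunnel, had 0.78 ± 0.10 with vesicles and 0.90 ± 0.10 in culture (edgeR adjusted p = 1.03e-05 and 2.71e-06). The TOP count with vesicles was 6 to 13 when 1 library was left out, lowest without vesicle library 1 or 3 or fresh 5 and highest without culture 3.

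Of 8 elongation genes, 4 were higher with vesicles and 5 in culture, and EEF2K, the kinase that restrains elongation, was lower in both. All genes were called higher at 27.4% and 28.7%, and lower at 25.5% and 25.6%. The elongation and TOP genes share their lowest log2 fold change of vesicles against culture (-0.749). The TOP genes and the paralogs outside the rule share that of culture against fresh tissue (-0.322). These lists thus overlap, and their counts are not independent. EEF2K had -0.66 ± 0.13 with vesicles and -0.74 ± 0.13 in culture (edgeR adjusted p = 5.47e-04 and 2.25e-04). EEF1B2, the exchange factor of the elongation factor that delivers transfer RNA, had 0.90 ± 0.11 in both (edgeR adjusted p = 8.75e-06 and 9.66e-06). With 1 library left out, the number higher with vesicles was 2 to 5, highest without culture 3. Of 33 initiation genes tested, 15 were higher in each comparison and none lower, beside the same shares of all genes. Without culture 3, 1 initiation gene was lower in each. EIF4A1, the helicase that unwinds the start of messages, rose by 1.49 ± 0.13 with vesicles and 1.48 ± 0.13 in culture (edgeR adjusted p = 2.33e-07 and 2.64e-07). The initiation count with vesicles was 10 without fresh 3 and 21 without culture 3.

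Of 16 regulators on the mTOR and TOP path, 8 were higher and 3 lower in each comparison, beside 27.4% and 28.7% of all genes higher and 25.5% and 25.6% lower. DDIT4, a stress-induced inhibitor of mTOR, rose by 3.32 ± 0.29 with vesicles and 3.86 ± 0.30 in culture (edgeR adjusted p = 2.43e-07 and 7.51e-08). EIF4EBP1, a repressor of cap-dependent initiation that mTOR inactivates, rose by 2.46 ± 0.26 with vesicles and 2.31 ± 0.26 in culture (edgeR adjusted p = 1.61e-06 and 2.84e-06). Of 13 chaperones and importers of ribosomal proteins, 7 were higher and 2 lower with vesicles, and 6 were higher and 1 lower in culture. The shares of all genes are those given for the regulators. Without culture 3, 3 of the chaperones and importers were lower in each. IPO5, an importer, rose by 1.14 ± 0.12 in both (edgeR adjusted p = 1.68e-06 and 1.75e-06). HEATR3, which escorts RPL5 to the nucleus, fell by 1.16 with vesicles and fell by 1.27 in culture (log2, SE 0.11 in each, edgeR adjusted p = 8.07e-07 and 3.52e-07).

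The 77 mitochondrial ribosomal protein genes, whose products build the separate ribosome of mitochondria, were called higher about as often as all genes. With vesicles 21 were higher (27.4% of all genes were) and 11 lower (25.5%), and in culture 19 were higher (28.7%) and 8 lower (25.6%), with median log2 fold changes of 0.09 and 0.16. Leaving out 1 library gave 12 higher (without vesicle library 3) to 28 (without culture 3) with vesicles, and 14 lower in culture without culture 3. Without culture 1 or 5, 5 were lower in culture. MRPL50 had -1.60 ± 0.18 with vesicles and -1.57 ± 0.18 in culture (edgeR adjusted p = 2.94e-06 and 3.52e-06), and MRPL17 had 0.74 ± 0.13 with vesicles and 0.78 ± 0.13 in culture (edgeR adjusted p = 1.78e-04 and 1.12e-04). The difference between the 2 lists was not tested.

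**Figure D5:**
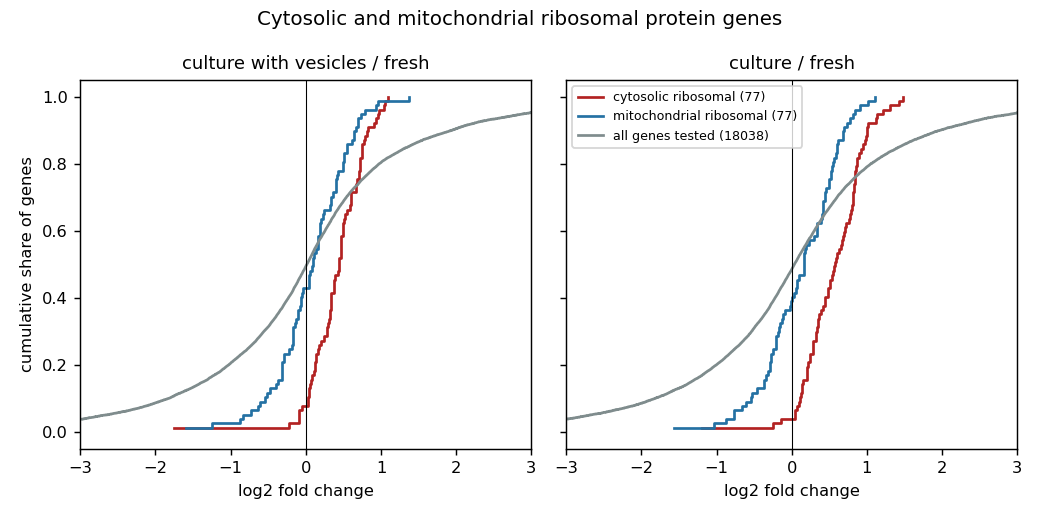
Cumulative share of genes by log2 fold change against fresh tissue for cytosolic ribosomal (77), mitochondrial ribosomal (77) and all tested genes (18038), with vesicles left and culture right. The cytosolic curve lies mostly right of 0, with medians of 0.44 and 0.58, and the mitochondrial curve crosses its middle at 0.09 and 0.16.

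Markers of some cell types in the tissue also differed between explants and fresh tissue. The summed CPM of 7 principal cell markers was 2090 to 3420 with vesicles, 968 to 3180 in culture and 17900 to 21900 in fresh tissue, and all 7 were called lower in both comparisons. The 3 basal cell markers summed to 1270 to 4130 with vesicles, 1570 to 5200 in culture and 272 to 518 in fresh tissue. The 3 markers of dividing cells summed to 170 to 232 with vesicles, 143 to 235 in culture and 2.94 to 10.6 in fresh tissue. All of these 6 were called higher in both comparisons. The 3 leukocyte markers summed to 8.66 to 16.8 with vesicles, 6.59 to 20.8 in culture and 8.32 to 22.4 in fresh tissue. These overlapping sums hold opposite changes, since CD68, a macrophage marker, was higher by 4.35 with vesicles and 4.30 in culture on the log2 scale, whereas PTPRC, the pan-leukocyte CD45, had -1.59 with vesicles and -1.18 in culture (edgeR adjusted p = 9.18e-06, 9.92e-06, 0.00356 and 0.0198). PTPRC was not called in culture without fresh 5, and CD3E, a T cell marker, was not called in either. Smooth muscle markers were at 302 to 2340 with vesicles, 500 to 2110 in culture and 446 to 1210 in fresh tissue, and none was called. Fibroblast markers were at 578 to 5690 with vesicles, 780 to 8530 in culture and 401 to 1440 in fresh tissue. Of these 3 markers, 1 was called higher in each comparison, or 2 in culture without culture 3. Endothelial markers summed to 299 to 664 with vesicles, 361 to 588 in culture and 223 to 283 in fresh tissue, so all explant sums were above fresh tissue. Of the 3 endothelial markers, 2 were called higher in each comparison. Their lowest log2 fold change was -0.06 with vesicles and 0.21 in culture. In culture 1 was called without culture 4 or fresh 2. The 2 matched sperm markers summed to 0 to 1.75 with vesicles, 0 to 0.906 in culture and 0.79 to 19.5 in fresh tissue. No matched marker was at 0 in all libraries of a group. The part of these cell types in the ribosomal protein differences was not tested.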

How the data were processed

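RNA-seq of 15 corpus epididymis samples was analysed, 5 each cultured with vesicles, cultured without, and fresh. The labels' protocols name a Qiagen RNeasy kit for extraction and TruSeq Stranded mRNA for the libraries. The table, deposited by the authors, holds raw counts for 38995 genes. Per the submitters' processing notes, the tools included Trimmomatic 0.38 and HISAT2 2.1.0, further Bowtie2 2.3.4.1, and also StringTie 2.1.3b. For genome build, annotation, counting program, strand setting and the handling of reads matching several genes, nothing is given in the sources used. All identifiers matched a RefSeq gene table (F.catus_Fca126_mat1.0), used for names and gene type alone.

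The low-count filter was filterByExpr (minimum count 10, minimum total 15), which kept 18038 genes. Counts were scaled by TMM and fitted in edgeR 4.0.16 (R 4.3.3) with glmQLFit and the 2-sided glmQLFTest. Group was the only term, and the 15 libraries shared a fit with 12 residual degrees of freedom. Calls needed an adjusted p (Benjamini-Hochberg, all tested genes) under 0.05. The SE was taken as the size of the log2 fold change over the square root of F. CPM use the TMM-scaled library size, and log2 CPM add a prior count of 2. The fit was tested on simulated data. DESeq2 1.42.0, limma-voom (limma 3.58.1), other scalings and filters, a replicate block and leaving out each library were tried.

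Same-numbered libraries deviated together between vesicles and fresh tissue (correlations of 0.242 to 0.362) and between vesicles and culture (0.181 to 0.602), so these are paired by number. Culture and fresh tissue were at 0.033 with culture 3, below the 0.1 asked for, and at 0.198 to 0.344 otherwise. If the numbers pair vesicles with both other groups, they pair culture with fresh tissue as well. The p-values come from the fit without this pairing, except where the block or another tool is named. The members and all gene lists were chosen with earlier results of these data known. Genes named are the 6 members with the largest called rise and fall against fresh tissue, the 6 with the smallest p between vesicles and culture, members picked for their roles, and up to 4 genes with the smallest p in each other list. RPL39L, picked for its role, has no matched symbol, and some genes that these rules name are not reported here, though they count in all totals. No transcript lengths were used, so levels are not compared between genes.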

Additional observations from a re-analysis of the deposited data

Results flagged for a closer look

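For 31 named members and for 3 measures of a library (the share of counts in members, their mean log2 CPM and the small per large subunit ratio), the highest and lowest of the 5 libraries of each group were examined. Of 102 groups of values, 8 held a library whose gap to its nearest neighbour exceeded 0.71 of the group's range. Chance gives about 1 in 20.

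Culture 3 gave 5 of the 8. There RPS3 (10.79 log2 CPM) and RPS15 (9.36) were far above the other cultures, and RPL23A (6.93) and RPL29 (7.58) far below. The ratio of small to large subunit counts in culture 3 was 0.841, also set apart from the other cultures. The other three were RPL11 in culture 2, the highest of the cultures at 9.02 log2 CPM, RPS3 in vesicle library 4, the lowest of its group at 9.03, and RPL39 in fresh 2, the highest fresh library at 6.93.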

How the results depend on the processing

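No called member changed sign under any alternative. With the block for the replicate number, the calls were 41 higher with vesicles and 50 in culture, the lower calls were 1 each, and vesicles against culture gave 0. Calls over all genes, in either direction, also rose with the block, from 9549 to 10283 with vesicles and from 9786 to 10438 in culture. In culture against fresh tissue, the block lost RPL23A (0.71, edgeR adjusted p = 0.0779) and added RPL23 and RPL30. The number called lower in culture was 2 without the filter and 2 in DESeq2, and 0 without fresh 3, against 1. With vesicles DESeq2 called 2 lower. Leaving out 1 library gave 31 to 53 higher and 1 to 1 lower with vesicles, and 44 to 56 higher and 0 to 1 lower in culture, with medians of 0.396 to 0.502 and 0.516 to 0.635. Other settings gave 31 to 55 higher with vesicles and 44 to 56 in culture. The 55 and 56 came from limma-voom, which called 11789 and 11036 of all genes in either direction. In every leave-one-out fit, 31 of 39 vesicle calls and 44 of 50 culture calls held, and the lost ones not given above were RPL28, RPS13 and RPS7 with vesicles and RPL14, RPL15 and RPL19 in culture. Of the values for named members, 59 lost and 25 gained a call under some setting and 2148 kept their side of the threshold. The cause of these changes was not tested. Depth was at least 17308832 counts per library and limits RPL10L, which had at most 8 counts in a library.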
